A study of Mus musculus with 311 samples.

Results

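The proteasome genes were taken as every gene whose symbol is Psma, Psmb, Psmc, Psmd, Psme, Psmf or Psmg followed by a number, with a probe measured on at least 95% of the arrays. This gave 36 of the 11387 genes measured, 1 probe each. They were 14 constitutive genes of the core particle (Psma1 to Psma7 and Psmb1 to Psmb7), 10 genes of the cap (Psmc1, Psmc3, Psmc4, Psmc5, Psmd2, Psmd3, Psmd4, Psmd7, Psmd13 and Psmd14), the 4 interferon-induced genes Psmb8, Psmb9, Psmb10 and Psme1, and 8 others. The 8 others were the cap assembly chaperones Psmd5 and Psmd10, the core assembly chaperones Psmg1 and Psmg2, the activator Psme3, the inhibitor Psmf1, and Psmc3ip and Psme2b. Psmc3ip meets the rule by its symbol alone, since its product acts in meiotic recombination and is no proteasome subunit. Psme2 itself was not analysed here. Psme2b is a near copy of Psme2 and its probe may also read Psme2, so its values are uncertain as to which gene they report. Psmg4 met the symbol rule but had a value on only 93.2% of arrays, just under the limit, while Psma6 and Psmd14 were just above it with 97.4%.

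The RNA came from whole livers of 311 F2 mice, female and male, bred from C57BL/6J and C3H/HeJ parents that both lacked Apoe, so that every animal was Apoe null and no animal in the data had a working Apoe gene. All ate a Western diet rich in fat from 8 to 24 weeks of age. Each animal was hybridised once, labelled with Cy3, against a Cy5-labelled pool of RNA from the study's own samples. The labels give neither sex nor genotype per animal, so all 311 arrays form 1 group and the results are about how genes vary together over animals. Apoe-null F2 livers on this diet are 1 model only, and nothing here compares them with another diet, genotype or tissue.

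The proteasome degrades proteins tagged with ubiquitin. Its core is a barrel of alpha rings, which form the gate, and beta rings, which hold the protease sites, and its cap recognises ubiquitin chains, removes them and unfolds the substrate with a ring of ATPases. In cells exposed to interferon, and in immune cells, Psmb8, Psmb9 and Psmb10 take the places of the catalytic subunits Psmb5, Psmb6 and Psmb7 in newly built cores, and Psme1 together with Psme2 forms a ring that can sit on the core in place of the cap. Such immunoproteasomes are known for making peptides for class I antigen presentation. The genes of the constitutive subunits are known to respond together to loss of proteasome activity, through the factor NFE2L1.

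The promoters of 29 of the 36 genes were found in a RefSeq table of 27025 genes (build GRCm38.p6), each as a window from 250 bases before to 50 after the start site. Those of 3 interferon-induced genes and of the constitutive subunits that Psmb8 and Psmb9 replace are shown, since the comparison of these genes runs through the results. Capitals in Psmb8 mark a gamma-activated site (GAS, TTCNNNGAA), in Psme1 a paired interferon response motif (GAAA repeated after 2 free bases, read on the reverse strand), and in Psmb5 and Psmb6 the core of an antioxidant response element (TGACNNNGC). Capitals in Psmb9 mark the 275 bases that its window shares with that of Tap1, the next gene, which is read in the opposite direction.
Psmb8, chr17:34197945-34198244, plus strand: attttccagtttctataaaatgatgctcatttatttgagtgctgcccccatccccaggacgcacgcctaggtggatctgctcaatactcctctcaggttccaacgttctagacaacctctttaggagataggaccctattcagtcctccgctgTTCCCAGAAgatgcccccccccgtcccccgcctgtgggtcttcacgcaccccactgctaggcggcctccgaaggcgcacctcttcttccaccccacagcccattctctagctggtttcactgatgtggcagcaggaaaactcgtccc
Psmb9, chr17:34187281-34187580, minus strand: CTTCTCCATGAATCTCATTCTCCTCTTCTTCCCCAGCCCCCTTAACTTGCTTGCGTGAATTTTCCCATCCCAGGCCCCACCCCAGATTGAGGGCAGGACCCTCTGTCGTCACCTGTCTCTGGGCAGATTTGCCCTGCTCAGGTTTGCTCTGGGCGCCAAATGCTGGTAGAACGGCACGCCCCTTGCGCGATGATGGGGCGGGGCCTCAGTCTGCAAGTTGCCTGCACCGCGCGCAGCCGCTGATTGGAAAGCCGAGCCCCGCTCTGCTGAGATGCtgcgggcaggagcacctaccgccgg
Psme1, chr14:55578244-55578543, plus strand: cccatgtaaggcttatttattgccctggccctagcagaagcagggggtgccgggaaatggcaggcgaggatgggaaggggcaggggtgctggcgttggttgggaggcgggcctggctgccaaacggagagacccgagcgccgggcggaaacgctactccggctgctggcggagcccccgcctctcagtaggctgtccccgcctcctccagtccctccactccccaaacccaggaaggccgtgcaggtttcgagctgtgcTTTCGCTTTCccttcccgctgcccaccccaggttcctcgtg
Psmb5, chr14:54617946-54618245, minus strand: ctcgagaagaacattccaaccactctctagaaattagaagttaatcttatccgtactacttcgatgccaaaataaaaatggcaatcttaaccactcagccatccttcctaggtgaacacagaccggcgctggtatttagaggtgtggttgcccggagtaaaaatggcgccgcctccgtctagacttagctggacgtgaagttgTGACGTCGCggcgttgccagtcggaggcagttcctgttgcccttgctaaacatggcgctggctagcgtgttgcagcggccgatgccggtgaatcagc
Psmb6, chr11:70525107-70525406, plus strand: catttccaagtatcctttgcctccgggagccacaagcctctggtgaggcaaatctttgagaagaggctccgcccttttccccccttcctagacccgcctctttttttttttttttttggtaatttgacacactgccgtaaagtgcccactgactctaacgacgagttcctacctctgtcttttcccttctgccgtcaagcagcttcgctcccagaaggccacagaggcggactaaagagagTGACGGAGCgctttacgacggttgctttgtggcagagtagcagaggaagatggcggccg

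Both strands were searched. The GAS in Psmb8 began at position -97 from the start site, and the paired motif in Psme1 at position 9. A GAS was in 3 of 29 member windows and in 8.47% of all windows. The paired interferon response motif was in 3 of 29 member windows and in 3.49% of all. The other GAS were in Psmd2 and Psmg1 and the other paired motifs in Psmb3 and Psmd4, none of them interferon-induced members. Each motif was thus in 1 of 4 windows of interferon-induced members. The windows of Psmb9, Psmb10 and Psme2b held neither motif. The antioxidant core was in 2 member windows, Psmb5 at position -47 and Psmb6 at position -9, and in 12.5% of all windows. A CCAAT box (CCAAT) was in 13 of 29 member windows, against 37.9% of all windows. None of the printed windows held overlapping matches. A match is a run of letters and no proof of a bound site, and a window without one says nothing about the factor.

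Values are log10 ratios of the animal over the pool, so 0 is the level of the pool. Because the pool is the average of the samples, only differences between animals can be read, and levels of different genes cannot be compared. The total RNA was from whole liver, so fewer cells of a type and less RNA per cell cannot be told apart, and every p-value measures the spread between animals hybridised once. In total 127 of 48205 pairs of arrays correlated below -0.3, as animals set against their own average can; turning the sign of all arrays would swap the lowest and highest values of a gene and would leave every correlation over animals as it is. The list means of hepatocyte markers (8 of 20 listed genes measured) lay between -0.204 and 0.145 log10 units. Those of pancreas markers (6 of 15) reached 1.15 and those of muscle markers (8 of 12) 0.713, and 11 arrays with a pancreas or muscle signal at least 10-fold over the pool were left out in an alternative.

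The immune subunits of the core varied most between animals. Psmb8, the inducible chymotrypsin-like subunit, ran from -0.259 over a median of -0.0206 to 0.326 log10 units in 307 animals. Psmb9 ran from -0.284 over -0.0190 to 0.251, and Psmb10, the inducible trypsin-like subunit, from -0.243 over 0.000255 to 0.302. From the 5th to the 95th percentile of animals these genes spanned 2.28-fold (Psmb8), 2.24-fold (Psmb9) and 2.07-fold (Psmb10), more than 86.1%, 85.3% and 80.8% of all genes did, in that order. Psme1, the interferon-induced activator, spanned only 1.43-fold, from a lowest value of -0.133 to a highest of 0.188, and Psme2b spanned 1.52-fold. The values of no proteasome gene fell into separate clusters of animals.

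The constitutive genes were narrower. The median span was 1.58-fold over the 14 core genes and 1.43-fold over the 10 cap genes, against 1.61-fold over all genes measured. Psmb2, a beta subunit without a protease site, was the tightest of the 36, from -0.103 over 0.0100 to 0.115, a span of 1.22-fold, and only 0.439% of all genes had a smaller SD. Psmc1 (1.31-fold), Psmb4 (1.31-fold) and Psme3 (1.32-fold) were almost as tight. The widest constitutive genes were Psma1 of the alpha ring (-0.366 over 0.00957 to 0.242, 1.90-fold), Psmd14, the cap's deubiquitinase (-0.301 over -0.00637 to 0.152, 1.76-fold), and Psmb3 (-0.355 over -0.0300 to 0.174, 1.74-fold). Of the core genes 6 of 14 spanned more than the median gene of the array, and of the cap genes 1 of 10, Psmd14.

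**Figure D1:**
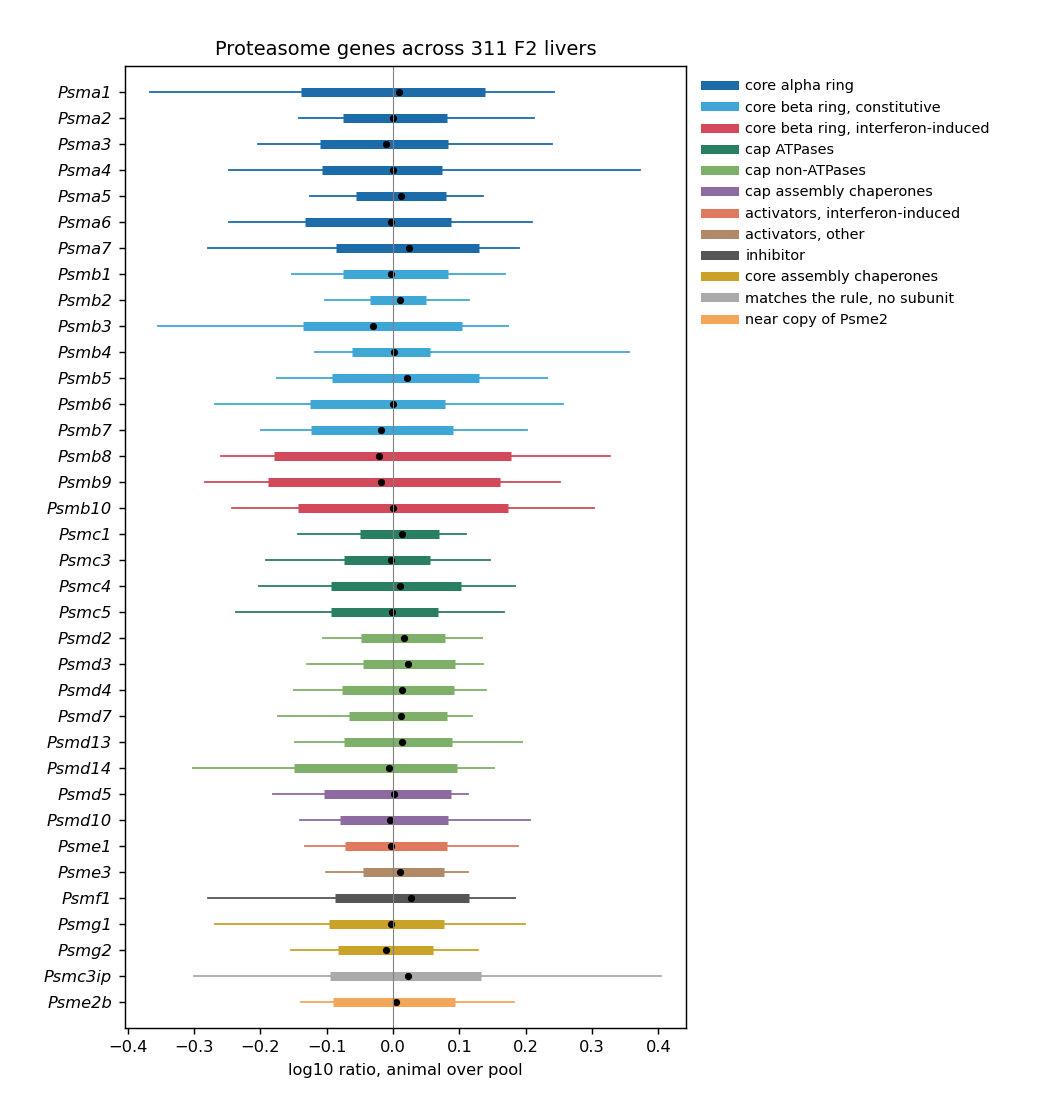
Log10 ratio of animal over pool for the 36 proteasome genes, in groups by role (colours); thin lines run from the lowest to the highest animal, thick bars from the 5th to the 95th percentile, and black points are medians over 303 to 311 animals. The thick bars of Psmb8, Psmb9 and Psmb10 are the longest, and that of Psmb2 is the shortest.

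Core genes went up and down together across animals, and so did cap genes, but the core and the cap were only loosely tied to each other. The mean Pearson r was 0.228 over the 91 pairs of core genes (95% jackknife interval over animals 0.192 to 0.265) and 0.317 over the 45 pairs of cap genes (0.275 to 0.359). Between core and cap it was 0.120 over 140 pairs (0.0860 to 0.155), below both, with intervals that do not overlap. The mean over all 64826191 pairs of measured genes was 0.00169. The mean of the cap pairs was lower with Y-linked genes as covariates, which stand in for sex, as given in the last section. An r of at least 0.3 was found in 34.1% of core pairs, 60.0% of cap pairs and 22.9% of pairs between them, against 4.40% of all gene pairs. Within the core, the alpha ring had a mean r of 0.301 (21 pairs) and the constitutive beta ring one of 0.178 (21 pairs). An index of the core genes and one of the cap genes, each the mean of standardized values, had an r of 0.361 and a rho of 0.356 over 311 animals.

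The closest pairs within the core were among Psmb3, Psmb7, Psmb1, Psma3 and Psma2. Psmb3 and Psmb7, a structural and the trypsin-like subunit, had an r of 0.854 (0.821 to 0.882, rho 0.849), and each was the other's closest among 11386 genes. Psma2 and Psma3 of the alpha ring had an r of 0.795 (rho 0.766) and were also each other's closest gene. Psmb1 had an r of 0.704 with Psmb7 and of 0.676 with Psmb3, and Psma3 one of 0.751 with Psmb7. Psma5 and Psmb2 were also each other's closest gene (r 0.567, rho 0.520), and Psma5 had nearly as high an r with Psma2, 0.558. In the 6 pairs other than Psma5 with Psma2 the permutation p was 1e-05 for both r and rho, the smallest that the permutations can give. With the 2 animals most extreme in the first gene left out, the r of Psmb3 with Psmb7 was 0.857. That of Psma2 with Psma3 was then 0.776 and that of Psma5 with Psmb2 0.549. These 6 are among 630 pairs of members that were computed, and the adjusted p of each, over all genes and by limma, was 2.64e-23 or lower. For 10 of the 36 members the closest of all genes was another member, and 32 had at least 1 other member among their 100 closest genes. The 4 without one were Psma7, Psmb4, Psmf1 and Psmc3ip.

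Not all core genes joined in. Psmb4, whose product is needed in assembly of the beta ring, had a mean r of 0.125 with the other core genes and no r of 0.3 or more with any member. Psmb5, the chymotrypsin-like subunit, had a mean r of -0.00581 with the other core genes and of 0.343 with the cap. Its closest member was the cap ATPase Psmc4, with an r of 0.636 (0.565 to 0.698, rho 0.626, adjusted p = 7.66e-33 by limma), in place 2 of 11386 genes. Psmb6, the caspase-like subunit, was closest to Psmg1, a chaperone of core assembly, with an r of 0.617 (rho 0.560, adjusted p = 1.63e-29 by limma), the highest of all genes. So the 3 constitutive protease subunits, which sit in the same ring, had different partners: Psmb7 went with Psmb3, Psmb5 with Psmc4, and Psmb6 with Psmg1.

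In the cap, the ATPase Psmc4 was the centre of the closest pairs. Its r was 0.677 with Psmd4, a ubiquitin receptor (rho 0.677), 0.630 with Psmd7, the partner of the deubiquitinase (rho 0.657), and 0.600 with Psmd13 (rho 0.590). Psmd4 was in place 62 of 11386 genes for Psmc4, whose highest r with any gene was 0.818. Psmd14, the deubiquitinase, had its highest r among members with Psmd5, a chaperone of cap assembly, at 0.740 (0.684 to 0.787, rho 0.706, 303 animals). Psmd5 was in place 10 of 11386 genes for Psmd14, whose highest r with any gene was 0.831. Psmd14 was also the cap gene that ran most with the core: its mean r was 0.349 with the core and 0.331 with all constitutive genes, the highest of the 36. Psmd3 and Psmd4 ran against much of the core instead, with mean r of -0.0893 and -0.135, and Psmd3 with Psmb3 had an r of -0.441 (rho -0.433). Each of these 5 pairs had a permutation p of 1e-05 for r and rho and an adjusted p of 6.15e-15 or lower by limma.

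The same division showed in the principal components of the 24 constitutive genes. The first held 25.8% of their variance, with 22 genes loading in one direction and Psmd3 and Psmd4 in the other. The second held 19.2% and set 11 genes against 13, with Psmc4, Psmd4, Psmd3 and Psmb5 at one end and Psmb3, Psmb7, Psmb1 and Psma4 at the other. Genes at both ends also followed the main components of the whole table. Component 1 of all genes (14.7% of the variance) had an r of 0.748 with Psmc4, 0.621 with Psmd14 and 0.594 with Psmd13, and component 3 (5.32%) had an r of 0.662 with Psmb3, 0.660 with Psmb7, -0.613 with Psmd3 and -0.597 with Psmf1. With 10 such components removed, the mean r was 0.160 in the core, 0.245 in the cap and 0.158 between them, so that the mean of core pairs and that of pairs across differed by little.

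The regulators that are not built into the core or cap took sides. Psmf1, an inhibitor of the core in the test tube, ran against Psmb3 (r -0.571, rho -0.534), Psmb7 (r -0.570, rho -0.511), Psmd10 (r -0.561) and Psma3 (r -0.498), and ran with Psmc4 (r 0.548). Psme3, a nuclear activator, had a mean r of 0.309 with the cap and of -0.103 with the core. Psmg2, which pairs with Psmg1 in core assembly, had a mean r of 0.292 with the core, and its r with Psmb3 was 0.630 (rho 0.600). Psmg1 and Psmd3 had an r of -0.445. Psmd10, the gankyrin chaperone, had a mean r of 0.0189 with the cap it helps to build. Psmc3ip, no subunit, had no r of 0.3 or more with any member.

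**Figure D2:**
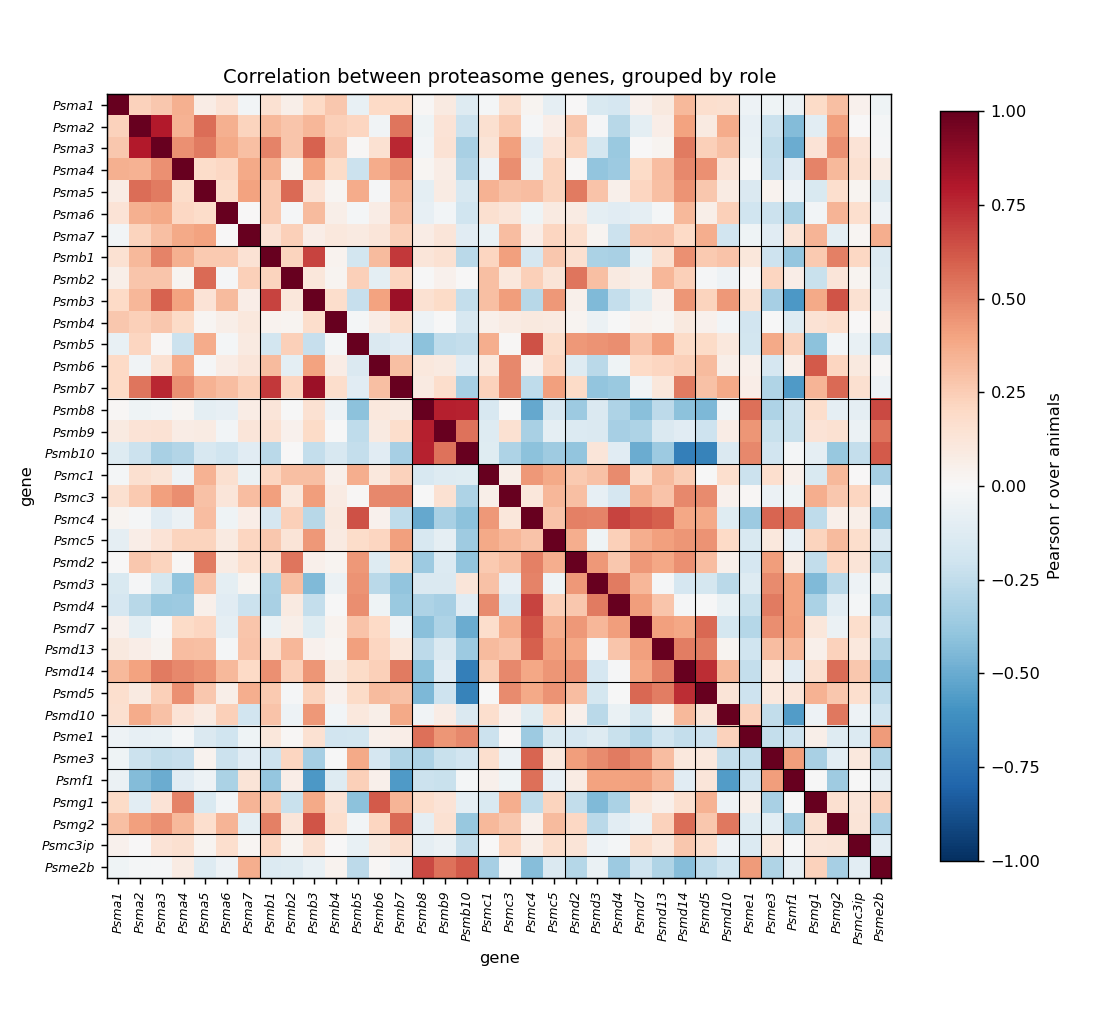
Pearson r over animals between all 36 proteasome genes, ordered by role with black lines between roles; red is positive and blue negative. Psmb8, Psmb9 and Psmb10 form a red block that is blue against much of the cap, Psmc4 is red along the cap, and Psmb3 and Psmb7 are the darkest pair of different genes (0.854).

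A second probe of the gene was available for 10 members, in 12 pairs of probes. The r between the probes ran from 0.144 to 0.947 with a median of 0.664. It was 0.947 for Psmb3, 0.941 for Psmb7, 0.931 for Psmb5 and 0.715 for Psme1, but 0.144 for Psmb1, 0.381 for Psmd4 and 0.449 for Psmd2. Psma5 had 3 other probes, at 0.426, 0.613 and 0.861. The other probe of Psmd4 had a mean r of 0.160 with the constitutive genes, against 0.0344 for the probe used here. The other probe of Psme1 had a mean r of -0.0137 with the constitutive genes, against -0.106 for the probe used. With the other interferon-induced genes it had a mean r of 0.340, against 0.491. The statements on Psmb1, Psmd4, Psmd2 and, in part, Psma5 and Psme1 thus hold for the probe used.

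The interferon-induced genes formed a unit of their own, tighter than core or cap. Their mean r was 0.595 over 6 pairs (0.544 to 0.645). Psmb8 had an r of 0.780 with Psmb9 (0.732 to 0.820, rho 0.770), the highest of 11386 genes, and of 0.767 with Psmb10 (0.717 to 0.810, rho 0.766), in place 3. Psmb9 with Psmb10 had an r of 0.546 (rho 0.539). Psme1 had an r of 0.551 with Psmb8 (rho 0.537), 0.481 with Psmb10 and 0.442 with Psmb9. Psme2b ran with them too, with a mean r of 0.561 and an r of 0.663 with Psmb8 (rho 0.672). The permutation p was 1e-05 for r and rho in each of these 7 pairs, and the largest adjusted p by limma was 5.25e-14, that of Psmb9 with Psme1.

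The animals at the ends of the Psmb8 range were compared gene by gene. In the animal with the highest Psmb8 (F2 number 37) Psmb8 was 0.326, Psmb9 0.171, Psmb10 0.281 and Psme1 0.109, while Psmb5 was -0.0126, Psmb6 -0.00430 and Psmb7 -0.0589. In the animal with the lowest Psmb8 (F2 number 336) Psmb8 was -0.259, Psmb9 -0.232 and Psmb10 -0.196, while Psme1 was only -0.0116 and Psmb5, Psmb6 and Psmb7 were 0.0650, 0.0290 and 0.0286. In the 3 animals with the highest and the 3 with the lowest Psmb8, all 3 inducible beta subunits lay on the same side of the pool as Psmb8, and Psmb5 lay on the other side. Psmb6 and Psmb7 had no such order: in F2 number 181 Psmb7 was 0.138 beside a Psmb10 of 0.172, and in F2 number 250 Psmb6 was -0.111, farther from the pool than Psmb10 at -0.0896, while Psmb5 was 0.202. Psmd14 was -0.127 in F2 number 37 and 0.0399 in F2 number 336.

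Against the constitutive genes the interferon-induced genes had a mean r below 0, -0.124 over 96 pairs (-0.164 to -0.0838), with 19 pairs at -0.3 or below and 0 at 0.3 or above. The opposition was to the cap more than to the core: the mean r was -0.235 with the cap (-0.287 to -0.183) and -0.0446 with the core (-0.0943 to 0.00502). Psmb10 was the most opposed, with an r of -0.682 with Psmd14 (-0.738 to -0.616, rho -0.665) and of -0.667 with Psmd5 (rho -0.639). Among 11386 genes Psmd14 was in place 20 from the lowest for Psmb10. Psmb8 was lowest with Psmc4, at -0.512 (rho -0.553). For Psmb9 the mean r with the core was 0.0725 and 12 of its 24 correlations with constitutive genes were above 0, against 2 of 24 for Psmb10. With Y-linked genes as covariates, which stand in for sex, the mean was -0.0346. With the first 10 components of the table removed it was 0.0426, above 0, and Psmb10 with Psmd14 was at 0.141, whereas the mean among the interferon-induced genes themselves was 0.531.

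**Figure D3:**
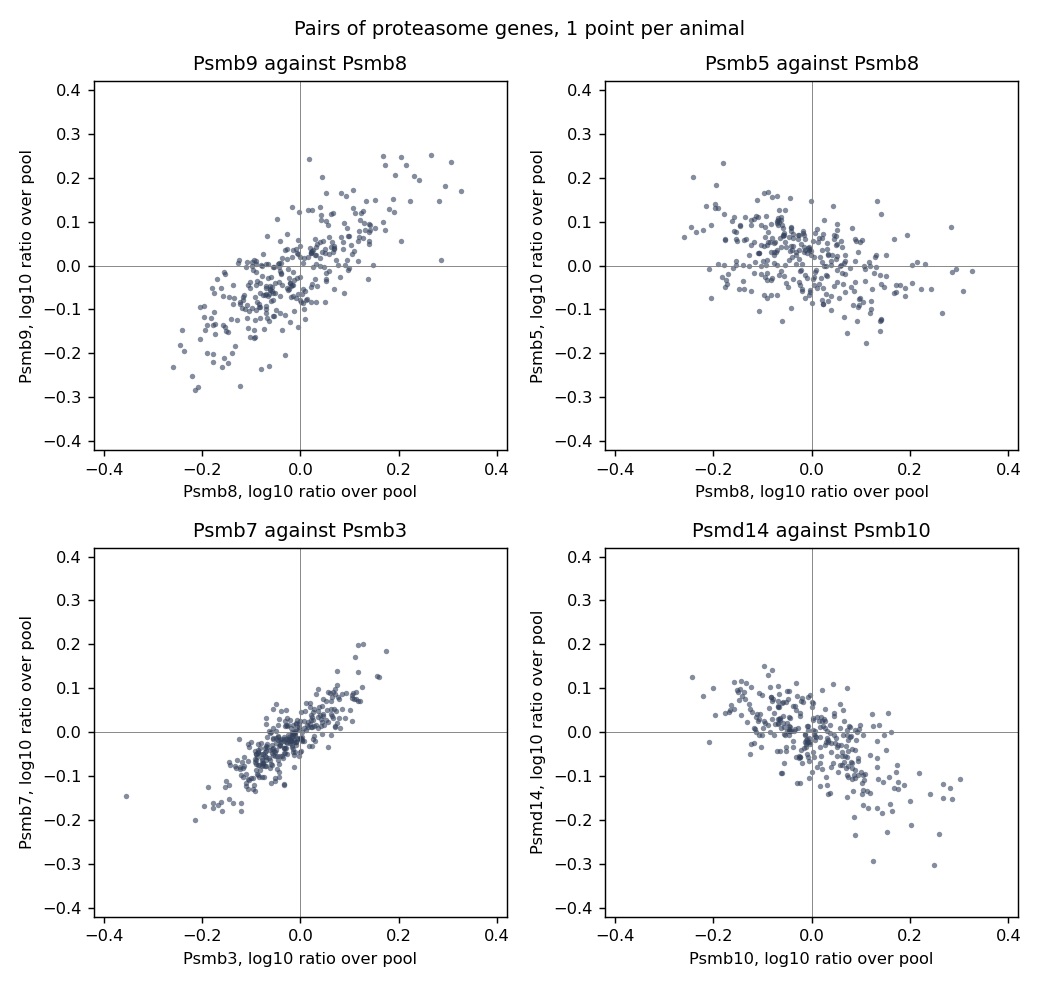
Log10 ratios over the pool of 4 pairs of proteasome genes, 1 point per animal. Psmb9 climbs with Psmb8 (r 0.780) and Psmb7 with Psmb3 (r 0.854), while Psmb5 falls off with Psmb8 (r -0.408) and Psmd14 with Psmb10 (r -0.682).

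Counting members by the limma test (Benjamini-Hochberg adjusted p under 0.05 over all genes) showed how members divided. With Psmb8, 6 of the 35 other members were positively associated and 13 negatively, where 24.0% and 22.0% of all genes were. With Psmb9 they were 11 and 9 (16.1% and 14.9% of all genes), with Psme1 6 and 16 (19.4% and 21.2%) and with Psme2b 6 and 16 (23.6% and 22.9%). With Psmb10 only 4 were positively and 23 negatively associated, against 29.8% and 26.0% of all genes. The positive members for Psmb8 are no larger a share than among all genes, while the negative ones for Psmb10 are a larger one. For comparison, Psmd14 had 25 of 35 members positively and 5 negatively associated, where 26.0% and 32.1% of all genes were. Of the 25, 18 had an r of at least 0.3, where 11.1% of all genes did.

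Each inducible beta subunit can be set against the constitutive one whose place it takes, and Psme1 against Psme3, a related activator that it does not replace. Psmb8 with Psmb5 had an r of -0.408 (-0.497 to -0.310, rho -0.404, permutation p = 1e-05, adjusted p = 1.82e-12 by limma). Psmb10 with Psmb7 had an r of -0.335 (-0.430 to -0.232, adjusted p = 7.62e-09), and Psme1 with Psme3 one of -0.236 (rho -0.220, adjusted p = 0.000183). Psmb9 with Psmb6 had an r of 0.0886 (-0.0231 to 0.198, rho 0.0882, permutation p = 0.119, adjusted p = 0.240), which did not pass. The chymotrypsin-like and trypsin-like pairs thus ran in opposite directions over animals, while for the caspase-like pair neither direction was found. A negative r was not particular to the replaced subunits. Psmb10 had one with 22 of 24 constitutive genes and Psmb8 with 17 of 24. Both were lower with a cap gene, Psmb10 with Psmd14 (r -0.682) and Psmb8 with Psmc4 (r -0.512). Among the 56 pairs of interferon-induced and core genes, Psmb8 with Psmb5 was the lowest.

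The level of interferon-stimulated genes in each liver was summed up by an index, the mean of the standardized values of 32 measured genes of 39 listed, such as Irf1, Stat2, Gbp2, Ifit3 and Cxcl9, with no proteasome gene among them. All 4 interferon-induced members and Psme2b went up with it. Per SD of the index Psmb8 was higher by 0.0810 ± 0.00440 log10 units (SE, 307 animals), or 1.21-fold, with an r of 0.724 (0.667 to 0.774, rho 0.707, adjusted p = 1.01e-48 by limma). Psmb10 was higher by 0.0701 ± 0.00389 (r 0.716, rho 0.726) and Psmb9 by 0.0704 ± 0.00424 (r 0.686, rho 0.670). The activators had smaller slopes, 0.0284 ± 0.00217 for Psme1 (r 0.601, rho 0.578) and 0.0334 ± 0.00253 for Psme2b (r 0.602, rho 0.625). Psmb8, Psmb10 and Psmb9 were in places 20, 23 and 33 among all genes in r with the index, and Psme2b and Psme1 in places 110 and 113. Each had a permutation p of 1e-05 for r and rho, and with the 2 animals most extreme in the index left out the r of Psmb8 was 0.718 and that of Psme1 0.603.

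No other member was positively associated with the index: the 5 above were all of the 36 with an adjusted p under 0.05 and a positive r, where 21.8% of all genes had both, and all 5 had an r of at least 0.3, where 7.31% of all genes did. A further 20 of 36 were negatively associated (22.6% of all genes), so that 25 of 36 were called in either direction, where 44.4% of all genes were. Of the 20, 5 had an r of -0.3 or below, where 5.59% of all genes did. The 20 held 9 of the 10 cap genes, all but Psmd3 (r -0.0922, adjusted p = 0.184), and 6 of the 14 core genes. The lowest were Psmd14 (r -0.416, -0.505 to -0.318, rho -0.424, adjusted p = 7.24e-13), Psmc4 (r -0.405, rho -0.420), Psmd13 (r -0.382, rho -0.383), the chaperone Psmd5 (r -0.378, rho -0.372) and Psmd7 (r -0.353, rho -0.378). The slopes were shallow, -0.0327 ± 0.00411 log10 units per SD of the index for Psmd14 and -0.0252 ± 0.00324 for Psmc4. In the core the lowest was Psmb5 (r -0.273, rho -0.268, adjusted p = 6.24e-06), and Psma1 (-0.00820), Psmb6 (-0.0446) and Psmb3 (-0.0605) were nearest to 0.

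The difference of log10 ratios within each animal was also fitted on the index, for the 3 inducible beta subunits minus those they replace and for Psme1 minus Psme3. All 4 differences were higher in animals with a higher index, which follows largely from the slopes of the inducible genes given above. Psmb8 minus Psmb5 gained 0.101 ± 0.00665 log10 units per SD of the index (r 0.655, adjusted p = 6.10e-37 by limma), Psmb10 minus Psmb7 0.0805 ± 0.00624 (r 0.591) and Psmb9 minus Psmb6 0.0734 ± 0.00516 (r 0.629). Psme1 minus Psme3 gained 0.0372 ± 0.00314 (r 0.560). These 4 differences remained above the threshold in each alternative in which they could be formed.

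**Figure D4:**
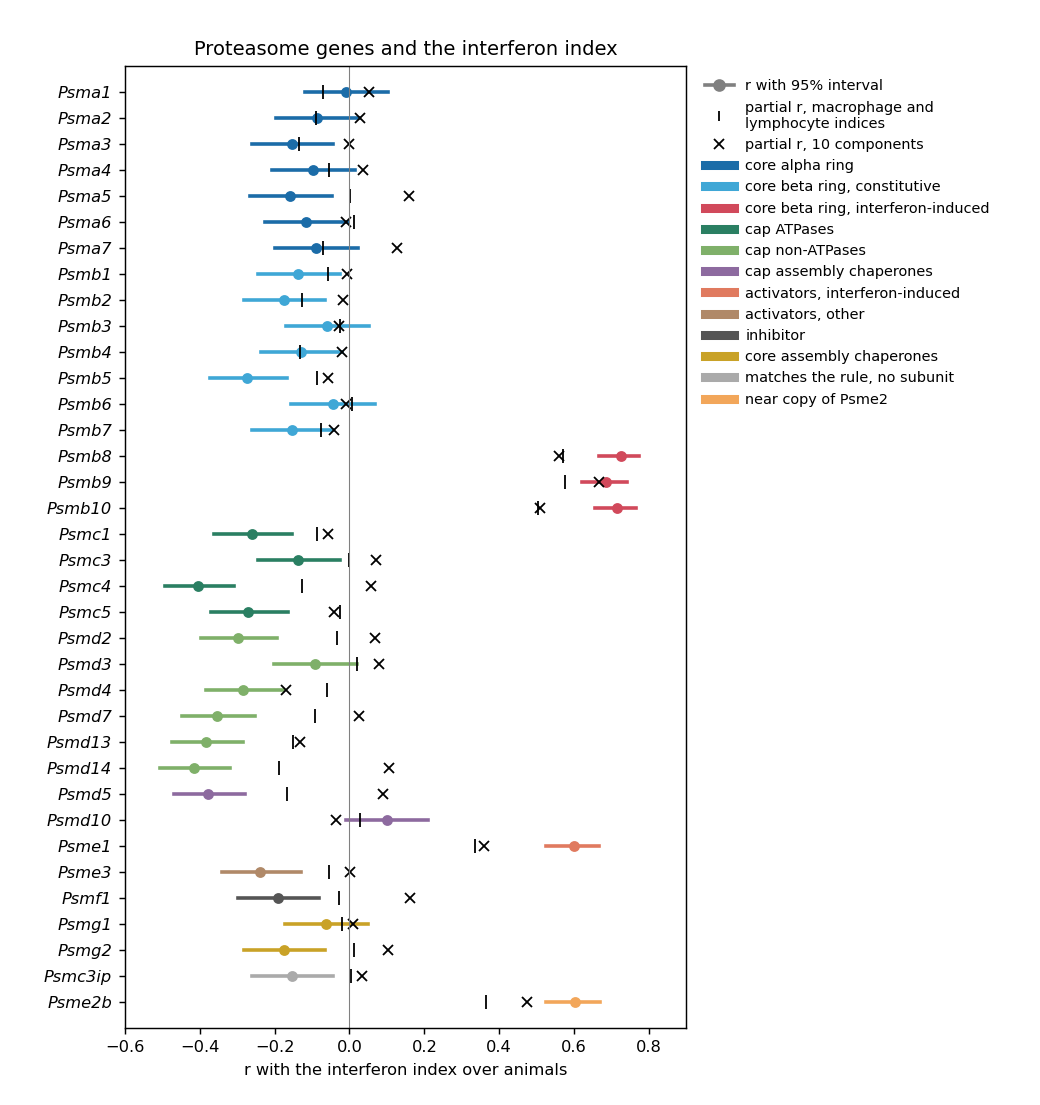
Pearson r of each proteasome gene with the interferon index over animals, with its 95% interval (points and bars, coloured by role), and the partial r with macrophage and lymphocyte indices as covariates (black ticks) or with 10 components of the whole table removed (crosses). Psmb8, Psmb9, Psmb10, Psme1 and Psme2b stay at the right under all of them, while most cap genes move up towards 0.

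Markers of immune cells moved with the same genes. The interferon index had an r of 0.666 with an index of 23 of 26 macrophage markers and of 0.678 with one of 19 of 26 lymphocyte markers. The mean log10 ratio of the macrophage markers ran from -0.248 over -0.0161 to 0.259, and that of the lymphocyte markers from -0.185 over -0.00981 to 0.239. All 4 interferon-induced members and Psme2b were positively associated with both, Psmb8 with an r of 0.637 with the lymphocyte index. With the macrophage index 5 of 36 members were positively and 24 negatively associated (23.5% and 28.2% of all genes), and all 10 cap genes were among the negative ones. With the lymphocyte index they were 5 and 15 (20.1% and 22.4%). With both immune indices as covariates the partial r with the interferon index was 0.570 for Psmb8, 0.577 for Psmb9, 0.504 for Psmb10, 0.336 for Psme1 and 0.365 for Psme2b, and that of Psmc4 was -0.127. In that fit 5 of 36 members were positively and 2 negatively associated, where 8.22% and 6.60% of all genes were. Positive members were also 5 without these covariates, where 21.8% of all genes were. Negative members fell from 55.6% to 5.56%, and negative genes among all from 22.6% to 6.60%. Of the cap genes 1 of 10 was negatively associated, against 9 of 10 without these covariates. With Y-linked genes as covariates 6 members were positively and 8 negatively associated, where 13.4% and 12.1% of all genes were. The part of immune cell number in the result was not tested beyond these values.

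Of the 8 genes outside the proteasome closest to each interferon-induced member, the interferon list held 4 for Psmb8, 5 for Psmb9, 3 for Psmb10, 5 for Psme1 and, for Psme2b, 2. For Psmb8, outside the proteasome, they were Tap2, a subunit of the peptide transporter, at an r of 0.770, Gbp3 at 0.753 and Ly75 at 0.742. For Psmb9 they were Tgtp1 (0.730), Irgm2 (0.709) and Irgm1 (0.680), GTPases that defend cells against microbes, and for Psmb10 AW112010 (0.834), Gbp3 (0.774) and Parp14 (0.740). For Psme1 they were Stxbp2 (0.619), Irf8 (0.602) and Tgtp1 (0.601), and for Psme2b Gbp3 (0.684) and Nmi (0.682). Of 12 measured genes of class I processing 7 were positively and 3 negatively associated with the interferon index (21.8% and 22.6% of all genes). The negative share was thus near that of all genes. The highest was H2-T23 (0.630), a class Ib molecule, followed by the regulator Nlrc5 (0.546), Tap1 (0.477), Tap2 (0.440) and Erap1, which trims peptides (0.424), while the 3 negative genes were the folding helpers Canx (-0.215), Calr (-0.182) and Pdia3 (-0.159).

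Psmb9, Tap1, Psmb8 and Tap2 lie side by side on chromosome 17, in the class II region. Psmb9 had an r of 0.599 with Tap1, with which it shares the promoter window printed above, and of 0.623 with Tap2. Psmb8 had an r of 0.770 with its neighbour Tap2 but of only 0.311 with Tap1, its neighbour on the other side. Psmb8 and Psmb9, with Tap1 between them, had 0.780. The genes next to the members were looked up after the members' values had been seen. The next gene beyond Tap2, H2-Ob, had an r of -0.0487 with Psmb8 and of 0.0142 with Psmb9, but H2-Aa farther on had 0.461 and 0.398. On the other side of Psmb9 lie class II genes of peptide loading, of which H2-DMb1 had an r of 0.543 with Psmb8 and 0.354 with Psmb9, H2-DMb2 0.455 and 0.490, and H2-DMa 0.364 and 0.536. Psmb10 lies on chromosome 8 and its r with Psmb8, 0.767, was close to that of Psmb8 with the linked Tap2. Among the measured neighbours of Psmb10, Lcat had an r of 0.498 and Edc4 of 0.434 with it. Psme1 lies on chromosome 14, 4 genes from Irf9, with which its r was 0.354, and Psme2b on chromosome 11 among interferon-inducible GTPase genes, with an r of 0.522 with Tgtp1 and 0.459 with Irgm1.

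A larger share of cap genes than of core genes was positively associated with each of 3 stress pathway indices. With an index of 19 genes of protein folding in the ER, all 10 cap genes were positively associated and 4 of 14 core genes, and over all members the calls were 19 positive and 6 negative (25.2% and 26.0% of all genes). Psmc4 had the highest r with it, 0.596, followed by Psmd4 and Psme3, while Psme1 was at -0.435. With an index of 16 NRF2 targets, genes of the oxidative stress response, 7 of 10 cap and 3 of 14 core genes were positively associated, and over all members 13 were positive and 4 negative (22.4% and 28.7%). The highest was the chaperone Psmd5 (r 0.662), with Psmd14 at 0.525 and, in the core, Psmb5 at 0.443, while Psmb10 was at -0.474. With an index of 14 heat shock genes the calls were 23 positive and 7 negative (24.3% and 25.6%), 10 positive among 14 core and 9 among 10 cap genes, with Psmd14 highest (r 0.516) and Psmb10 lowest (r -0.503). With Y-linked covariates 7 of 10 cap and 0 of 14 core genes were positively associated with the ER index. Over all members 8 were then positive and 3 negative, where 17.8% and 16.7% of all genes were. With the same covariates 7 of 10 cap and 2 of 14 core genes were positively associated with the NRF2 index, where 22.0% of all genes were. The share of the core, 14.3%, was thus below that of all genes. With the heat shock index 6 of 10 and 8 of 14 were, where 20.2% of all genes were, so the shares of cap (60.0%) and core (57.1%) hardly differed. With 10 components removed the members positively associated were 9 with the ER index (5.80% of all genes), 14 with the NRF2 index (5.37%) and 3 with the heat shock index (5.65%). Genes within each list differed. With an index of the 24 constitutive genes 14 of 19 ER genes had a positive r. So did 12 of 16 NRF2 targets and 10 of 14 heat shock genes, and the lowest r were -0.435, -0.285 and -0.348 in that order. The activity of the stress responses themselves was not tested.

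**Figure D5:**
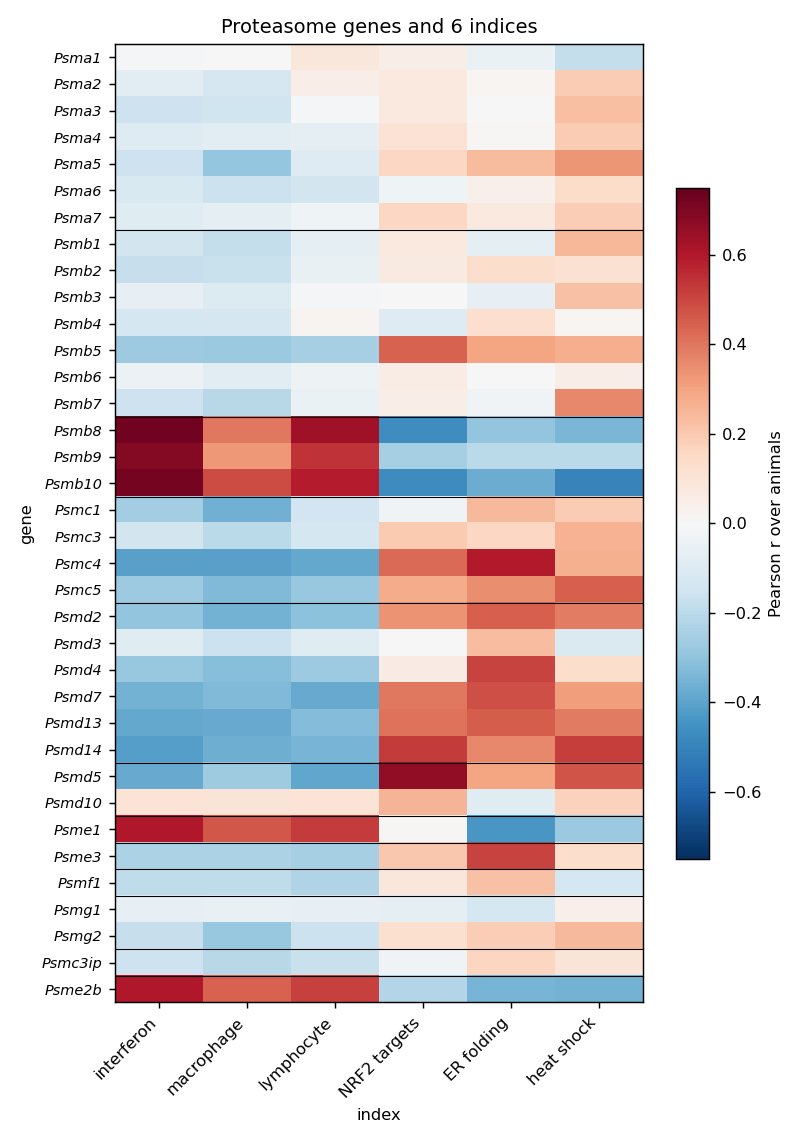
Pearson r over animals of the 36 proteasome genes with 6 indices, ordered by role with black lines between roles. Psmb8, Psmb9, Psmb10, Psme1 and Psme2b are red with the interferon, macrophage and lymphocyte indices and mostly blue with the others, and most cap genes run the other way.

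Outside the members, the gene with the highest r with an index of the 24 constitutive genes was Txnl1, a thioredoxin known to bind the cap, at 0.696, the first of 11351 genes. It was one of 23 measured genes in a list of proteasome partners, of which 18 had a positive r, with a median of 0.161 against -0.00880 over all genes, and 6 an r of at least 0.3, where 8.13% of all genes did. Among them were Vcp, the ATPase that extracts substrates (0.529), and the protease Ide (0.513). The next closest were Gosr2 (0.666), Vkorc1l1 (0.649), Slc33a1 (0.643), Ddx1 (0.638), Sec22b (0.631) and the ubiquitin-conjugating enzyme Ube2k (0.628). The lowest were Anpep (-0.626), Crocc (-0.623), Uhrf1bp1l (-0.619), ATP13A2 (-0.616) and Oas2 (-0.613), an interferon-stimulated gene. The constitutive index had an r of -0.405 with the interferon index, -0.462 with the macrophage index and 0.331 with the index of 8 hepatocyte markers.

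The F2 number, the only label that differs between animals and whose meaning is not given in the sources used here, was associated with 12 of 36 members, 7 positively and 5 negatively (12.2% and 11.5% of all genes). Of the core genes 5 of 14 had higher values at higher numbers and 2 of 10 cap genes lower ones. The largest r in size was that of Psmf1, -0.331, and the highest was that of Psma3, 0.249. Of the interferon-induced members only Psmb10 was associated with the number (r -0.174, adjusted p = 0.0130 by limma). In animals up to and above the median number of 186 the mean r was 0.237 and 0.225 in the core, 0.331 and 0.306 in the cap, and 0.609 and 0.593 among the interferon-induced genes.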

How the data were processed

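Liver RNA of 311 F2 mice was hybridised with a common pool on 2-colour arrays. The authors deposited 1 ratio per probe and array, which was used as a log10 ratio. The base and the sign, animal over pool, are not given in the sources used here and were derived from the values: the pool is the mean of the samples, and the slope of a gene's mean on its variance, -1.47 over 5292 genes, is nearest to the -1.15 that log10 requires (-0.5 for the natural log, -0.347 for log2). Normalisation, background correction and centring by the authors are not given in the sources used here, and no further normalisation was applied. Array medians lay between -0.0218 and 0.0172, 0.745% of values were missing, and 1990 stood at the limits of -2 and 2. Arrays give no read depth, and their number limits the precision.

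Of 23388 probes, 13645 had 1 gene in the platform annotation, 48 several and 9695 none. Symbols were updated through RefSeq by Entrez ID (12653 probes), accession (4), symbol (214) or older symbol (93), and 681 kept the name as annotated. Each of 11387 genes was read from its probe with the fewest missing values. Genes were regressed on an index, a member or the F2 number with limma 3.58.1 (R 4.3.3), all arrays in 1 group, with Benjamini-Hochberg adjustment over all genes and a threshold of 0.05, with an r of at least 0.3 in size as a second rule. Correlations were Pearson and Spearman with 100000 permutations (seed 2814, Python 3.11.15, scipy 1.17.1, numpy 2.4.6), Fisher intervals for single pairs and delete-one jackknife intervals for means. Components came from the whole table of genes. The tests recovered known effects in simulated data. There the noise of each gene was drawn independently, so the variation that real genes share was not covered.

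The members and gene lists were chosen with earlier results of these data known. Named are all members, genes of the lists, the 15 highest and 5 lowest genes with the constitutive index, and the 8 highest for each interferon-induced member. Alternatives were other probe filters and probes, centring, ranks, arrays left out, animals up to and above the median F2 number of 186, Y-linked or immune covariates, and 5 or 10 components removed. One array's title and source name disagree on the F2 number, and sample descriptions speak of 330 mice where the series design has 311.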

Additional observations from a re-analysis of the deposited data

How the results depend on the processing

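With probes on every array, 1 inducible-minus-constitutive difference could be formed and passed, members called were 18 with the macrophage, 12 with the lymphocyte and 18 with the heat shock index, and mean r was 0.276 in the core and 0.490 among interferon-induced genes; calls with Psmb8, which lacks values on some arrays, could not be made. In animals up to the median F2 number, 16 members were called with the interferon index, 10 with Psmb9, 13 with Psme1 and 5 along the F2 number; above it, 12 with Psmb9 and 11 with Psme1. With the most variable probe of each gene, mean r among interferon-induced genes was 0.519.

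With Y-linked covariates, members called were 14 with the interferon, 19 with the macrophage, 13 with the lymphocyte and 11 with the ER index, 9 with Psmb8, 13 with Psme1 and 9 with Psme2b, and mean r was 0.207 in the cap, 0.521 among interferon-induced genes and -0.0346 between these and constitutive genes. With 10 components removed, they were 6 with the interferon, 3 with the macrophage, 7 with the lymphocyte, 10 with the ER and 7 with the heat shock index, 10 with Psmb8, 11 with Psmb9, 9 with Psmb10, 12 with Psme1, 12 with Psme2b and 5 along the F2 number. Mean r was then 0.160 in the core, 0.245 in the cap, 0.158 between them, 0.531 among interferon-induced genes and, reversed, 0.0426 between these and constitutive genes. With 5 removed, they were 7 with the interferon, 6 with the macrophage, 11 with the lymphocyte, 5 with the ER and 10 with the heat shock index, 7 with Psmb8, 7 with Psmb9, 12 with Psmb10, 11 with Psme1, 14 with Psme2b and 2 along the F2 number, with mean r of 0.152 in the core, 0.227 in the cap and -0.00555 between interferon-induced and constitutive genes. With macrophage and lymphocyte indices as covariates, 7 were called with the interferon index. These compare with 25, 29, 20, 25 and 30 members for the interferon, macrophage, lymphocyte, ER and heat shock indices in the report. Calls fell among all genes too. With the interferon index 21.8% of all genes were positive and 22.6% negative in the report, against 5.35% and 3.80% with 10 components removed. Of the members 13.9% and 55.6% were, against 13.9% and 2.78%. With the heat shock index positive calls went from 24.3% to 5.65% of all genes and from 63.9% to 8.33% of members. With Y-linked covariates 13.4% of all genes were positive and 12.1% negative with the interferon index, and 17.8% and 16.7% with the ER index. Of the members 16.7% and 22.2% were with the interferon index, and 22.2% and 8.33% with the ER index. The other counts in this section stand without a share of all genes and are not read as results about the members.

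The r of single genes with the interferon index turned positive for Psma5 with Y-linked covariates (0.0313), 10 components removed (0.160), 5 removed (0.145) and immune covariates (0.000631). With 10 removed it also did so for Psmc3 (0.0718), Psmc4 (0.0567), Psmd2 (0.0686), Psmd7 (0.0243), Psmd14 (0.105), Psmd5 (0.0902), Psme3 (0.00118), Psmf1 (0.162), Psmg2 (0.102) and Psmc3ip (0.0347). In the same setting the r of Psmb10 with Psmd14 was 0.141 and that of Psmb3 with Psmd3 0.174. With 5 removed it did so for Psmc3 (0.0182), Psmd2 (0.00641), Psme3 (0.0411), Psmg2 (0.0155) and Psmc3ip (0.0296), and with immune covariates for Psmg2 (0.0132) and Psmc3ip (0.00414). The cause was not tested. The r of 15 named pairs, and Psme2b in place of Psme2, were added to the alternatives after seeing the data. No paired analysis was possible because all animals form 1 group.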
